A study of Homo sapiens with 18 samples.

Results

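A set of 10 genes of polyamine metabolism were examined, chosen by name: the biosynthetic enzymes ODC1, AMD1, SRM and SMS, the catabolic enzymes SAT1, SMOX and PAOX, and the regulators OAZ1, OAZ2 and AZIN1. All 10 were found among the 60675 Ensembl genes counted, through the symbols of GENCODE 29, and all 10 had enough counts to be tested in both cell lines. Polyamines are small positively charged molecules that bind nucleic acids and are needed for growth. Ornithine decarboxylase (ODC1) makes putrescine, S-adenosylmethionine decarboxylase (AMD1) supplies the aminopropyl donor, and spermidine synthase (SRM) and spermine synthase (SMS) build the longer polyamines from these. The acetyltransferase SAT1 marks spermidine and spermine for export or for oxidation by PAOX, SMOX oxidises spermine directly, the antizymes OAZ1 and OAZ2 send ODC1 protein for degradation, and AZIN1 binds the antizymes. The prostate is known for secreting large amounts of spermine and spermidine.

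RNA was measured in LNCaP, a prostate cancer cell line that responds to androgen, and in C4-2, a line derived from LNCaP that grows with little androgen. Each line had 3 groups of 3 libraries, all made 72 h after treatment: scrambled siRNA (siScr) with vehicle, siScr with the androgen derivative R1881 (1 nm), and siRNA pools against both histone demethylases KDM1A and KDM7A (dual knockdown) with R1881 (1 nm). No library analysed here had the dual knockdown without R1881, so knockdown was only compared in the presence of R1881. The comparisons asked how R1881 changed these genes, how the knockdown changed them with R1881 present, and whether the lines differed.

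For the C4-2 vehicle libraries the title gives C4-2 and the cell line field gives LNCaP, and the title was followed. For the siRNA samples the vehicle is given as DMSO and for R1881 in culture as ethanol, and this was not resolved. Nothing in the labels says that the 3 libraries of a group came from separate cultures, so p-values measure the spread between these libraries, which may be technical. Total counts ranged from 3182604 to 20154243 with a median of 18117641, and the smallest total was that of C4-2 vehicle replicate 3. In bulk RNA a change in the number of cells of a kind and a change of RNA per cell cannot be told apart. The basal markers KRT5, TP63 and KRT14 summed to at most 1.604 CPM (read counts scaled by library size) and the leukocyte markers PTPRC, CD3E and LYZ to at most 3.21 CPM, the latter in C4-2 vehicle. The endothelial markers PECAM1 and VWF summed to 4.95 to 20.8 CPM. The fibroblast markers COL1A1, COL1A2 and DCN summed to 16.1 to 17.6 CPM in LNCaP with vehicle, 6.96 to 10.9 with R1881 and 10.2 to 12.6 with the dual knockdown, and in C4-2 to 27.4 to 35.9, 17.1 to 24.2 and 26.6 to 36.3 CPM. Over the 18 libraries COL1A1 had 6001 counts, COL1A2 6 and DCN 9, and VWF had 3662 and PECAM1 6. The fibroblast and endothelial sums are thus nearly all COL1A1 and VWF. These sums moved with treatment, and their part in the results was not tested. KDM1A and KDM7A were both lower after the dual knockdown. KDM1A fell by 1.05 on the log2 scale in LNCaP and by 3.12 in C4-2, and KDM7A fell by 0.93 and 2.51. KLK3, which encodes prostate-specific antigen, rose with R1881 by a log2 fold change of 3.70 in LNCaP and 4.16 in C4-2.

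Among these, 4 members rose with R1881 in both lines, and the sequences just before their starts are shown because these genes moved together. Each is the stretch of 250 bases before a RefSeq start (GRCh38.p14), read on the gene's strand and printed 5′ to 3′. Capitals mark matches on either strand to the TATA box, the CCAAT box and the core of the cAMP response element, spelled out after the sequences.
ODC1, chr2:10448328-10448577, minus strand: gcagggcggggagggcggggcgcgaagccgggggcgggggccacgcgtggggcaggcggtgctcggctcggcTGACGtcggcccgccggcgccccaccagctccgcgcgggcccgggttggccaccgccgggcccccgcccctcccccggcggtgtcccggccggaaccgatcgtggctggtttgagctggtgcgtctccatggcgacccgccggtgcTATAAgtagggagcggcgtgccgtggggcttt
AMD1, chr6:110874535-110874784, plus strand: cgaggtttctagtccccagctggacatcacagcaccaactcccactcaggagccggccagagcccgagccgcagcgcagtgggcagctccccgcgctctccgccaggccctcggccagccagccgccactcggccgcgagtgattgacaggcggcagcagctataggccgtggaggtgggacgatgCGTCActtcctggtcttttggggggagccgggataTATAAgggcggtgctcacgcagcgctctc
SMS, chrX:21940459-21940708, plus strand: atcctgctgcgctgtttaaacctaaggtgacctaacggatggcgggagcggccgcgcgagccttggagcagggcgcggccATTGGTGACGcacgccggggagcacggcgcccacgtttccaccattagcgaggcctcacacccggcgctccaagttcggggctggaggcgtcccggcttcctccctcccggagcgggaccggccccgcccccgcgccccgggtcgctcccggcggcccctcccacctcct
SAT1, chrX:23782923-23783172, plus strand: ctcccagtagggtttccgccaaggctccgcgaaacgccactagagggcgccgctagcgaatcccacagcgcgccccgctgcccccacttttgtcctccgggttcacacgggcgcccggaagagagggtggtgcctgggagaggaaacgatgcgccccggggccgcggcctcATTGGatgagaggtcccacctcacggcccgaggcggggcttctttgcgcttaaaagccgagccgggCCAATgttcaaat
The ODC1 stretch is 1 of 2 that RefSeq lists for the gene and the AMD1 stretch 1 of 3.

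The ODC1 and AMD1 stretches hold the TATA box letters TATAA, at 32 to 28 bases and at 29 to 25 bases before the start, as do 18.9% of all 35116 stretches of this length. ODC1, AMD1 and SMS hold TGACG, the core of the cAMP response element, found in 21.2% of all. SMS holds CCAAT once and SAT1 holds it at 2 places, on opposite strands, against 32.0% of all stretches with at least 1 match. In SMS the matches to CCAAT and TGACG lie side by side without overlap. The hexamer AGAACA of the androgen response element, found in 12.4% of all stretches, is not in these 4 stretches on either strand, nor in those of SRM, OAZ1 and OAZ2. Stretches were matched for 7 members, and none was matched for SMOX, PAOX and AZIN1. SRM, which did not pass the test with R1881, holds CACGTG (E-box, in 6.34% of all stretches), 2 matches to CCAAT and 6 to GGGCGG (GC box, in 42.6%). GGGCGG is also in the stretches of ODC1, AMD1, SMS, OAZ1 and OAZ2, and is not capitalised above.

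The genes lie on 9 chromosomes in GRCh38. ODC1 (ENSG00000115758) is at chr2:10439968-10448504 on the minus strand, AMD1 (ENSG00000123505) at chr6:110814621-110895713 on the plus strand, SRM (ENSG00000116649) at chr1:11054584-11060024 on the minus strand and SMS (ENSG00000102172) at chrX:21940573-21994835 on the plus strand. SAT1 (ENSG00000130066) is at chrX:23783173-23786226, 1788337 bases beyond SMS, with 24 annotated genes between them. SMOX (ENSG00000088826) is at chr20:4120980-4187747 and PAOX (ENSG00000148832) at chr10:133379234-133391694, both on the plus strand. OAZ1 (ENSG00000104904) is at chr19:2269509-2273490 on the plus strand, OAZ2 (ENSG00000180304) at chr15:64687573-64703281 on the minus strand, and AZIN1 (ENSG00000155096) is on chromosome 8. Reads were counted without strand, so those of members cannot be told from those of genes on the other strand where exons overlap. OAZ1 shares 236 exon bases with JSRP1, OAZ2 shares 554 with AC100830.3 and AZIN1 shares 324 with AZIN1-AS1, each on the opposite strand. These partners had 44, 0 and 275 counts over the 18 libraries, against 166623, 34147 and 52463 for the members. On the same strand, PAOX shares 158 exon bases with AL360181.3 (19 counts) and OAZ1 shares 220 with AC005258.1 (1 count). Partner counts do not show how reads in the shared bases were assigned. Pseudogenes named after AMD1 and SRM had at most 32 counts over all libraries.

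Per length, ODC1 and OAZ1 had the highest mean levels with vehicle in both lines, and OAZ1 was the fifth in LNCaP with R1881. Levels between genes are given as RPKM (reads per kilobase of exon scaled by library size, mean ± SD, n = 3). With vehicle, ODC1 led in LNCaP at 165 ± 4.17 RPKM, before OAZ1 at 123 ± 11.2 and AMD1 at 121 ± 5.20, and the last pair overlapped. SMS at 49.998 ± 4.18, SAT1 at 46.9 ± 1.29, SRM at 41.3 ± 5.54 and AZIN1 at 35.0 ± 1.03 RPKM followed, of which SMS overlapped SAT1, and SRM overlapped AZIN1. OAZ2 stood at 13.9 ± 0.614 RPKM, and the oxidases SMOX at 1.71 ± 0.203 and PAOX at 1.54 ± 0.0652 RPKM were the lowest and overlapped. In C4-2 with vehicle, OAZ1 at 169 ± 11.4 and ODC1 at 147 ± 14.0 RPKM overlapped at the top. SAT1 was only the eighth in that order, at 6.33 ± 0.381 RPKM, and separate from OAZ2 above it at 13.3 ± 0.751 and PAOX below it at 3.10 ± 0.781 RPKM. With R1881, SMS became the second in LNCaP at 344 ± 23.6 RPKM, overlapping ODC1 at 387 ± 35.9. In C4-2 with R1881, SMS was the third at 149 ± 8.58 RPKM, below ODC1 at 331 ± 21.2 and OAZ1 at 184 ± 12.2. The plot of the 10 genes by library shows the values behind these orders, on the CPM scale.

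**Figure D1:**
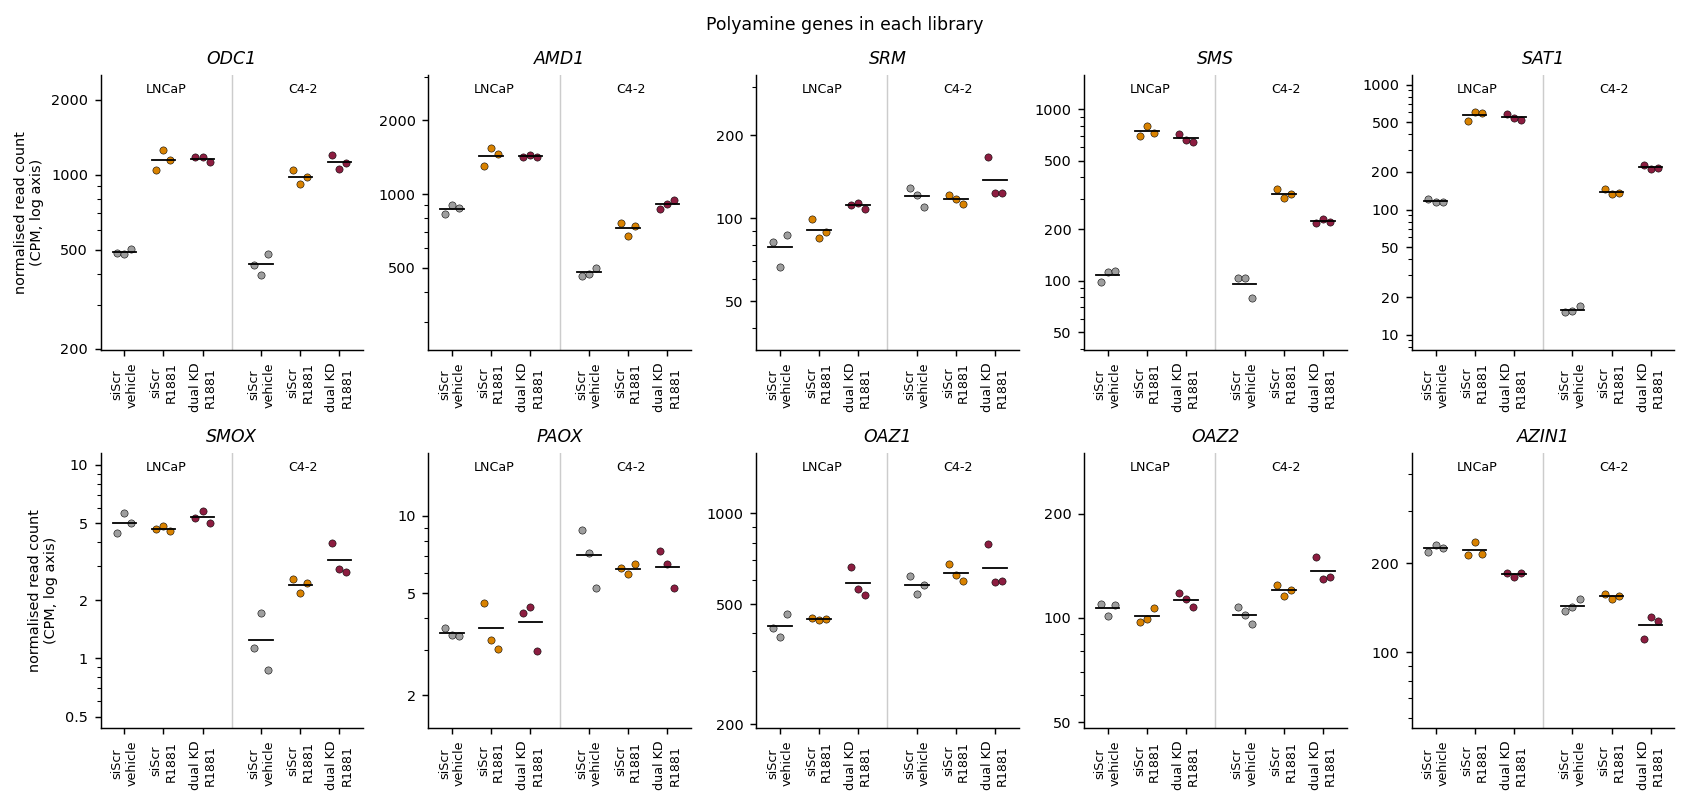
Normalised read counts (CPM, log axis) of the 10 polyamine genes in each of the 18 libraries, by line and group, with points for libraries and bars for the mean of 3. SMS and SAT1 show the widest gaps between vehicle and R1881, with SAT1 at 15.2 to 16.9 CPM in C4-2 vehicle and 133 to 146 CPM with R1881.

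R1881 raised both decarboxylases and spermine synthase in both lines, and the acetyltransferase SAT1 as well. In LNCaP, 4 of the 10 genes rose and 0 fell at an adjusted p under 0.05 (edgeR's quasi-likelihood test, Benjamini-Hochberg over all genes), while 46.6% of all 17162 genes tested passed, 23.5% higher and 23.2% lower. In C4-2, 6 rose and 0 fell, against 32.8% of 16965 genes, 17.1% higher and 15.7% lower. The median log2 fold change of the 10 was 0.13 in LNCaP and 0.41 in C4-2, beside -0.04 and -0.02 over all genes tested. Passing also the 2-fold threshold of the study were ODC1, SMS and SAT1 in each line, against 12.3% of all genes in LNCaP and 9.07% in C4-2. Vehicle and R1881 values did not overlap for 4 members in LNCaP and 6 in C4-2, against 53.0% and 46.9% of all genes.

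ODC1 catalyses the first committed step. Its counts in LNCaP were 486, 478 and 503 CPM with vehicle and 1048, 1260.2 and 1142 CPM with R1881. In C4-2 they were 434, 397 and 479.9 CPM with vehicle and 1046, 920.5 and 979 CPM with R1881. Every library with R1881 was above every vehicle library. The log2 fold change was 1.22 (SE 0.061, adjusted p = 3.34e-11) in LNCaP and 1.17 (SE 0.085, adjusted p = 9.12e-08) in C4-2. The responses of the lines differed by -0.06 on the log2 scale, with a 95% interval from -0.28 to 0.16.

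AMD1 provides the aminopropyl groups used by both synthases. It stood at 829.7, 903.4 and 879.01 CPM in LNCaP vehicle and at 1297, 1533 and 1449 CPM with R1881. In C4-2 it stood at 464, 472 and 501 CPM with vehicle and at 764, 676 and 738 CPM with R1881. Its groups also did not overlap in either line, and its level in C4-2 with R1881 stayed below that of LNCaP with vehicle. The log2 fold change was 0.69 (SE 0.0575, adjusted p = 2.96e-08) in LNCaP and 0.60 (SE 0.0755, adjusted p = 2.94e-05) in C4-2, short of 2-fold in both.

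The synthases parted. SMS, which converts spermidine to spermine, had 97.6, 113 and 114 CPM in LNCaP vehicle and 698, 798 and 732 CPM with R1881. In C4-2 it had 104, 103 and 79.0 CPM with vehicle and 342, 305 and 321 CPM with R1881. All R1881 libraries were far above all vehicle libraries, and those of LNCaP were more than those of C4-2. The mean CPM was 6.88 times higher with R1881 in LNCaP and 3.38 times in C4-2, with log2 fold changes of 2.76 (SE 0.0706, adjusted p = 3.41e-15) and 1.73 (SE 0.0955, adjusted p = 4.27e-09). SRM, which makes spermidine, had 81.9, 66.7 and 86.8 CPM in LNCaP vehicle and 99.1, 84.5 and 89.2 CPM with R1881. In C4-2 it had 129, 122 and 109.6 CPM with vehicle and 121, 118 and 113 CPM with R1881. Its groups overlapped in both lines, and the log2 fold changes of 0.20 (adjusted p = 0.0746) and -0.05 (adjusted p = 0.771) did not pass the test. The call on SRM in LNCaP also depended on the settings, since it passed without the filter on low counts (0.23, adjusted p = 0.00897), with DESeq2 (0.22, adjusted p = 0.0405) and with RLE factors (0.22, adjusted p = 0.0481). Exon GC content is 63.6% in SRM, the highest of the 10 genes. With each library's GC trend removed, SRM passed at 0.40 in LNCaP (adjusted p = 7.45e-06). In C4-2 it passed at 0.25 (adjusted p = 0.00292), with the opposite sign to the value above. In LNCaP, SRM also passed in 3 of the 9 fits that left out a library, with 0.29 without vehicle replicate 3, 0.24 without vehicle replicate 1 and 0.27 without R1881 replicate 2.

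Among the catabolic genes, SAT1 changed most. It had 121, 116 and 115 CPM in LNCaP vehicle and 509, 602 and 589 CPM with R1881. In C4-2 it had 15.2, 15.3 and 16.9 CPM with vehicle and 146, 133 and 136 CPM with R1881. The groups were separate in both lines, and SAT1 in C4-2 with R1881 lay above LNCaP with vehicle. The mean CPM was 4.84 times higher in LNCaP and 8.76 times in C4-2, with log2 fold changes of 2.26 (SE 0.0695, adjusted p = 4.05e-14) and 3.15 (SE 0.0845, adjusted p = 2.41e-12). Between SMS and SAT1 on the X chromosome, 6 genes were tested in LNCaP and 5 in C4-2, of which 3 rose in each line and 0 fell, with log2 fold changes of at most 1.46 and 1.08. Of all genes tested, 23.5% rose in LNCaP and 17.1% in C4-2, and nothing is read from so few genes.

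The oxidases were low throughout. SMOX stood at 4.46, 5.66 and 5.00 CPM in LNCaP vehicle and at 4.65, 4.83 and 4.54 CPM with R1881, which overlapped. In C4-2 it stood at 1.14, 1.72 and 0.874 CPM with vehicle and at 2.58, 2.19 and 2.45 CPM with R1881, which did not. The lowest of these was 3 counts in the smallest library. SMOX rose in C4-2 with a log2 fold change of 0.84 (SE 0.277, adjusted p = 0.0304) and did not pass in LNCaP at -0.14 (adjusted p = 0.506). The C4-2 call was lost without vehicle replicate 1 (0.68), without R1881 replicate 1 (0.80), without R1881 replicate 3 (0.84), with DESeq2 (adjusted p = 0.0566) and without the filter on low counts (0.86, adjusted p = 0.0642). PAOX, between 3.05 and 8.80 CPM in the siScr libraries, overlapped between vehicle and R1881 in both lines, with log2 fold changes of 0.05 (95% interval -0.40 to 0.50) in LNCaP and -0.25 (-0.64 to 0.14) in C4-2.

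The regulators of ODC1 moved little with R1881. OAZ1 had 417, 388 and 465 CPM in LNCaP vehicle and 451, 444 and 448 CPM with R1881. In C4-2 it had 620.2, 542 and 580.1 CPM with vehicle and 679, 626 and 597 CPM with R1881. Both pairs of groups overlapped, with log2 fold changes of 0.06 (adjusted p = 0.529) and 0.12 (adjusted p = 0.390), which passed the test with the GC trend removed at 0.20 (adjusted p = 0.0274) and 0.29 (adjusted p = 0.00812). OAZ2, a second antizyme, had 109.9, 101 and 109 CPM in LNCaP vehicle and 97.3, 99.0 and 107 CPM with R1881, which overlapped. In C4-2 it had 108, 102 and 96.1 CPM with vehicle and 125, 116 and 121 CPM with R1881. The C4-2 groups did not overlap and OAZ2 rose there by a log2 fold change of 0.23 (SE 0.0772, adjusted p = 0.0335). That call was lost in 5 of 9 fits without 1 library, at 0.20 without vehicle replicate 3, 0.22 without vehicle replicate 2, and 0.21, 0.26 and 0.23 without R1881 replicate 1, 2 and 3. With all libraries thinned to the depth of the smallest, the C4-2 call was also lost (0.23, adjusted p = 0.0956). OAZ2 was then called lower with R1881 in LNCaP (-0.24, adjusted p = 0.0271). AZIN1 ranged from 214 to 236 CPM in the siScr libraries of LNCaP and from 138 to 158 CPM in those of C4-2, with log2 fold changes of -0.04 (adjusted p = 0.594) and 0.11 (adjusted p = 0.363).

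Without the shallow C4-2 vehicle replicate 3, the log2 fold changes with R1881 in C4-2 were 1.24 for ODC1, 0.63 for AMD1, 1.64 for SMS, 3.18 for SAT1 and 0.76 for SMOX, and each passed the test. The plot of fold changes shows both comparisons for both lines.

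**Figure D2:**
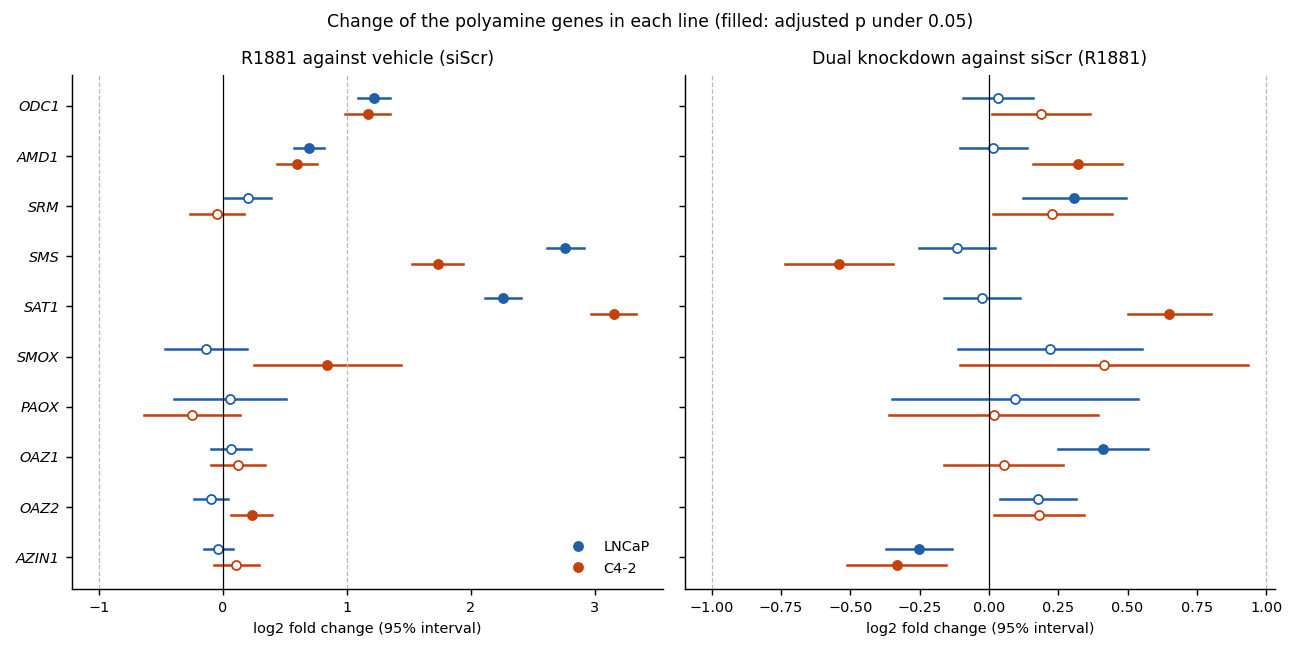
Log2 fold changes (points) with 95% intervals (lines) of the 10 genes for R1881 against vehicle (left) and dual knockdown against siScr with R1881 (right), LNCaP in blue and C4-2 in orange. Filled points passed an adjusted p under 0.05 and dashed lines mark a 2-fold change. SAT1 and SMS lie at 1.73 or more with R1881 in both lines, and with the dual knockdown no gene reaches 2-fold.

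The changes with the dual knockdown were under 2-fold, and AZIN1 was the member called in both lines. In LNCaP, SRM and OAZ1 rose and AZIN1 fell, so 3 of 10 passed, against 14.2% of all genes tested, 8.27% higher and 5.89% lower. That background of 2431 genes was 839 without siScr R1881 replicate 2, 957 without siScr R1881 replicate 3, 918 without knockdown replicate 1 and 840 without knockdown replicate 2. In C4-2, AMD1 and SAT1 rose and SMS and AZIN1 fell, so 4 of 10 passed, against 23.5% of all genes, 12.7% higher and 10.8% lower, or 3983 genes, which were 2482 without siScr R1881 replicate 3. The median log2 fold change of the 10 was 0.06 in LNCaP and 0.18 in C4-2, beside 0.001 and 0.005 over all genes. The values did not overlap for 5 members in LNCaP and 8 in C4-2, against 34.5% and 40.5% of all genes. The R1881 comparison and the knockdown comparison of a line share the siScr libraries with R1881. No member passed both thresholds of the study, met by 0.286% of all genes in LNCaP and 3.94% in C4-2. KDM1A and KDM7A were reduced further in C4-2 than in LNCaP, and the part this had in the difference between the lines was not tested.

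In C4-2 the acetyltransferase gene rose and the spermine synthase gene fell with the knockdown. SAT1 had 146, 133 and 136 CPM with siScr and 226, 213 and 215 CPM with the dual knockdown. In LNCaP it had 509, 602 and 589 CPM with siScr and 584, 543 and 521 CPM with the knockdown. The C4-2 groups were separate and the LNCaP groups overlapped. The log2 fold change was 0.65 in C4-2 (SE 0.0701, adjusted p = 2.03e-05) and -0.03 in LNCaP (95% interval -0.16 to 0.11, adjusted p = 0.844). SMS in C4-2 had 342, 305 and 321 CPM with siScr and 216, 229.6 and 221 CPM with the knockdown. In LNCaP it had 698, 798 and 732 CPM with siScr and 718, 664 and 647 CPM with the knockdown. SMS fell in C4-2 without overlap (log2 fold change -0.54, SE 0.091, adjusted p = 0.00072), and had -0.12 in LNCaP (95% interval -0.25 to 0.02, adjusted p = 0.258), where the groups overlapped. Side by side in C4-2, SAT1 had 3.15 with R1881 and 0.65 with the knockdown, and SMS had 1.73 and -0.54, in comparisons that share their siScr libraries.

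AMD1 had 764, 676 and 738 CPM with siScr in C4-2 and 869, 912 and 945 CPM with the knockdown. In LNCaP it had 1297, 1533 and 1449 CPM with siScr and 1416, 1438 and 1415 CPM with the knockdown. AMD1 rose in C4-2 with a log2 fold change of 0.32 (SE 0.0748, adjusted p = 0.00655), and the LNCaP groups overlapped at 0.02 (SE 0.0572, adjusted p = 0.892). ODC1 had 1196, 1055 and 1117 CPM with the knockdown in C4-2 and 1181, 1179 and 1119.7 CPM in LNCaP. Its C4-2 values were all above those with siScr given before, but its log2 fold change of 0.19 did not pass (adjusted p = 0.123), and in LNCaP it was 0.03 (adjusted p = 0.776).

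The antizyme and its inhibitor were called in opposite directions in LNCaP. OAZ1 had 451, 444 and 448 CPM with siScr and 663, 563 and 538 CPM with the knockdown, without overlap, and a log2 fold change of 0.41 (SE 0.0769, adjusted p = 0.00434). In C4-2 OAZ1 had 793, 594 and 595 CPM with the knockdown, of which the last pair lay below all values of siScr with R1881 given before, and a log2 fold change of 0.05 (95% interval -0.16 to 0.27). AZIN1 in LNCaP had 214, 236 and 215 CPM with siScr and 186, 179 and 185 CPM with the knockdown. In C4-2 AZIN1 had 158, 151 and 155 CPM with siScr and 111, 131 and 128 CPM with the knockdown. AZIN1 was thus lower without overlap in both lines, by -0.25 in LNCaP (SE 0.056, adjusted p = 0.00889) and -0.33 in C4-2 (SE 0.0834, adjusted p = 0.0102) on the log2 scale. The LNCaP call was lost without siScr R1881 replicate 2 (-0.21) and without knockdown replicate 2 (-0.24), and the C4-2 call with all libraries thinned to the depth of the smallest (-0.25, adjusted p = 0.132). OAZ2 had log2 fold changes of 0.18 in each line that did not pass (adjusted p = 0.0761 and 0.103).

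SRM had 99.1, 84.5 and 89.2 CPM with siScr in LNCaP and 112, 114 and 108 CPM with the knockdown, a log2 fold change of 0.31 (SE 0.0877, adjusted p = 0.0283) without overlap. The call was lost in 5 of 9 fits without 1 library, at 0.25 and 0.29 without siScr R1881 replicate 2 and 3, and at 0.30, 0.29 and 0.33 without knockdown replicate 1, 2 and 3. In C4-2 SRM had 166, 124 and 124 CPM with the knockdown, and its log2 fold change of 0.23 (adjusted p = 0.119) was 0.08 without knockdown replicate 1, which was also the highest of the 3 for OAZ1, OAZ2, SMOX and PAOX. SMOX had log2 fold changes of 0.22 in LNCaP and 0.42 in C4-2 (adjusted p = 0.387 and 0.246), and PAOX had 0.09 and 0.02 (adjusted p = 0.819 and 0.959). The intervals for PAOX, from -0.35 to 0.54 and from -0.36 to 0.39, are the widest beside those of SMOX at these low counts.

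The members that rose with the knockdown in LNCaP are rich in GC and the one that fell is poor in GC. Exon GC content is 63.6% for SRM, 63.1% for PAOX, 59.7% for SMOX and 59.1% for OAZ1, and 42.5% for AZIN1 and 37.9% for AMD1. With each library's trend of counts with GC content removed, the LNCaP log2 fold changes became -0.03 for SRM (adjusted p = 0.788), 0.20 for OAZ1 (adjusted p = 0.104) and -0.15 for AZIN1 (adjusted p = 0.0502). None of the 3 calls in LNCaP held, and AMD1 passed instead at 0.16 (adjusted p = 0.0344). Over all genes the same step took the LNCaP calls from 2431 of 17162 to 1024 of 17033, so the loss was not confined to these members. In C4-2 the same step left SAT1 at 0.66, AMD1 at 0.34, SMS at -0.54 and AZIN1 at -0.33, all of which passed, as did SRM at 0.15 and OAZ2 at 0.18. Over all genes it took the C4-2 calls from 3983 of 16965 to 5290 of 16846, so the gain was not confined to these members either. Whether a GC trend of the libraries or a change of these genes gave the LNCaP values was not tested.

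**Figure D3:**
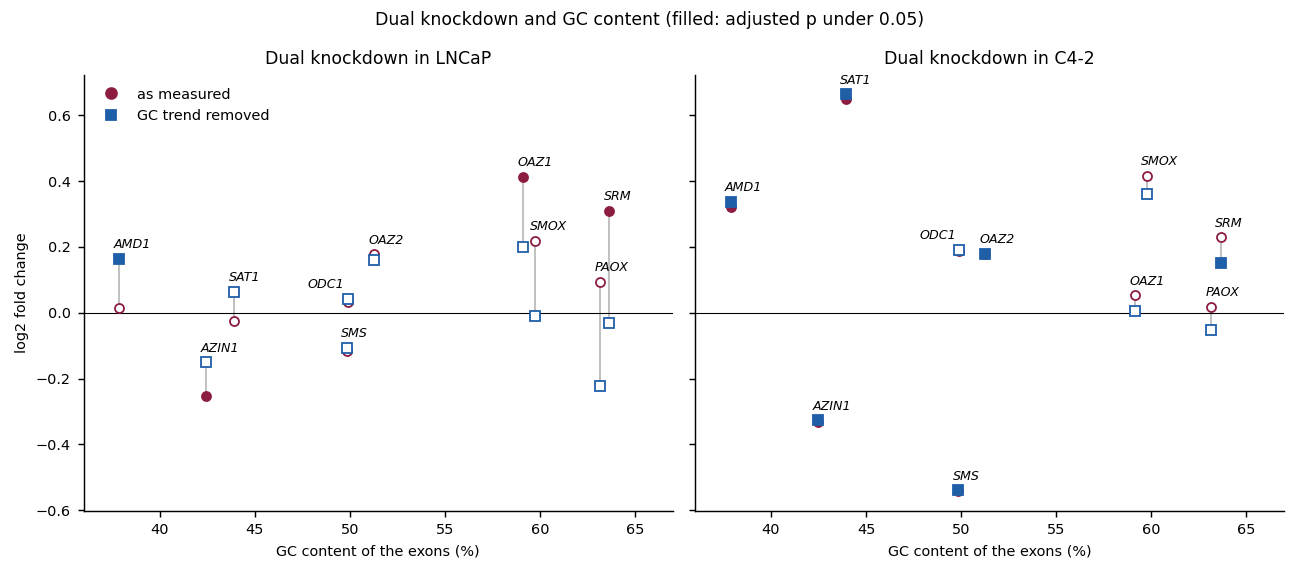
Log2 fold change with the dual knockdown against exon GC content (%) of the 10 genes in LNCaP (left) and C4-2 (right), as measured (red circles) and with each library's GC trend removed (blue squares), filled where the adjusted p was under 0.05. In LNCaP the values of SRM and OAZ1 drop from 0.31 and 0.41 to -0.03 and 0.20, and in C4-2 SAT1 and SMS hardly move.

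The lines were compared directly in a fit of all 18 libraries. With vehicle, 7 of the 10 genes differed between C4-2 and LNCaP, 3 higher in C4-2 and 4 lower, against 58.9% of all 18684 genes tested, 29.4% higher and 29.5% lower. With R1881 all 10 differed, 4 higher and 6 lower, against 58.3% of all genes, 28.6% higher and 29.7% lower. The libraries of the lines did not overlap for 7 members with vehicle and for 10 with R1881, against 61.9% and 64.8% of all genes. Passing 2-fold as well were 3 members with vehicle and 2 with R1881, against 24.2% and 23.8% of all genes. SAT1 was the most unequal, at 121, 116 and 115 CPM in LNCaP vehicle and 15.2, 15.3 and 16.9 CPM in C4-2 vehicle, a log2 difference of -2.91 (SE 0.0835, adjusted p = 2.65e-17). With R1881 the SAT1 difference was -2.03 (SE 0.0696, adjusted p = 4.67e-16). SMOX was also lower in C4-2, by -1.91 with vehicle and -0.95 with R1881 on the log2 scale, while PAOX was higher by 1.08 and 0.77. AMD1 was lower by -0.86 and -0.97 and AZIN1 by -0.65 and -0.52, and SRM was higher by 0.63 and 0.37 and OAZ1 by 0.46 and 0.50, and all of these passed the test. The calls with R1881 were lost for SMOX and SRM with all libraries thinned to the depth of the smallest. Their differences were then -0.60 (adjusted p = 0.179) and 0.24 (adjusted p = 0.121).

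SMS did not differ beyond the test with vehicle, at -0.16 (95% interval -0.34 to 0.03), and was lower in C4-2 with R1881, at -1.20 (SE 0.0843, adjusted p = 7.21e-11). The vehicle difference of SMS passed at -0.21 (adjusted p = 0.0379) with at least 10 counts required in every library. It also passed in 1 of 18 fits without 1 library. ODC1 had -0.17 with vehicle (adjusted p = 0.0649) and -0.23 with R1881 (adjusted p = 0.0128), the latter lost without C4-2 R1881 replicate 2 (-0.18) and without LNCaP R1881 replicate 2 (-0.16). Without C4-2 vehicle replicate 3, ODC1 passed with vehicle at -0.24 (adjusted p = 0.0105), as it did at -0.17 without LNCaP R1881 replicate 1 or 2. OAZ2 had -0.06 with vehicle (adjusted p = 0.496) and 0.25 with R1881 (adjusted p = 0.00391).

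The response to R1881 differed between the lines for SMS, SAT1, SMOX and OAZ2, so for 4 of 10 against 14.0% of all genes. It was larger in C4-2 for 3, against 6.05% of all genes, and smaller for 1, against 7.95%, and SMS also passed 2-fold, as did 4.32% of all genes. The log2 difference, C4-2 minus LNCaP, was -1.05 for SMS (SE 0.122, adjusted p = 2.43e-06) and 0.88 for SAT1 (SE 0.106, adjusted p = 4.08e-06), and both held without each library in turn. SMOX at 0.95 (SE 0.292, adjusted p = 0.0320) passed in 11 of 18 fits without 1 library. It was lost, at 0.78 to 0.96, without LNCaP vehicle replicate 2 or 3, LNCaP R1881 replicate 1 or 3, C4-2 vehicle replicate 1 and C4-2 R1881 replicate 1 or 3. OAZ2 at 0.31 (SE 0.0997, adjusted p = 0.0408) passed in 8 of 18. It was lost, at 0.28 to 0.33, without LNCaP vehicle replicate 1 or 3, LNCaP R1881 replicate 1 or 2, LNCaP knockdown replicate 2, C4-2 vehicle replicate 2 or 3, and each C4-2 R1881 library. For AMD1 the difference was -0.11 (95% interval -0.30 to 0.08).

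The response to the dual knockdown differed for SAT1, SMS and AMD1, so for 3 of 10 against 10.9% of all genes. The difference was positive for 2, against 6.97% of all genes, and negative for 1, against 3.88%, and none of the 10 passed 2-fold, as 1.99% of all genes did. The difference, C4-2 minus LNCaP, was 0.70 for SAT1 (SE 0.0949, adjusted p = 6.15e-05), which held without each library in turn. It was -0.40 for SMS (SE 0.118, adjusted p = 0.0317) and 0.33 for AMD1 (SE 0.092, adjusted p = 0.0247), each of which passed in 10 of 18 fits without 1 library. SMS was lost, at -0.43 to -0.35, without replicate 1 or 3 of the siScr R1881 libraries of either line, LNCaP knockdown replicate 1 or 2 and C4-2 knockdown replicate 2 or 3. AMD1 was lost, at 0.27 to 0.34, without LNCaP siScr R1881 replicate 2 or 3, each LNCaP knockdown library, C4-2 siScr R1881 replicate 2 and C4-2 knockdown replicate 2 or 3. With the GC trend removed the difference for AMD1 was 0.17 and did not pass (adjusted p = 0.124), and those of SAT1 (0.61) and SMS (-0.43) passed. OAZ1 had -0.33 (adjusted p = 0.142), and -0.47 without C4-2 knockdown replicate 1 (adjusted p = 0.00788). The plot of one line against the other shows these differences as distances from the line of equal response.

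**Figure D4:**
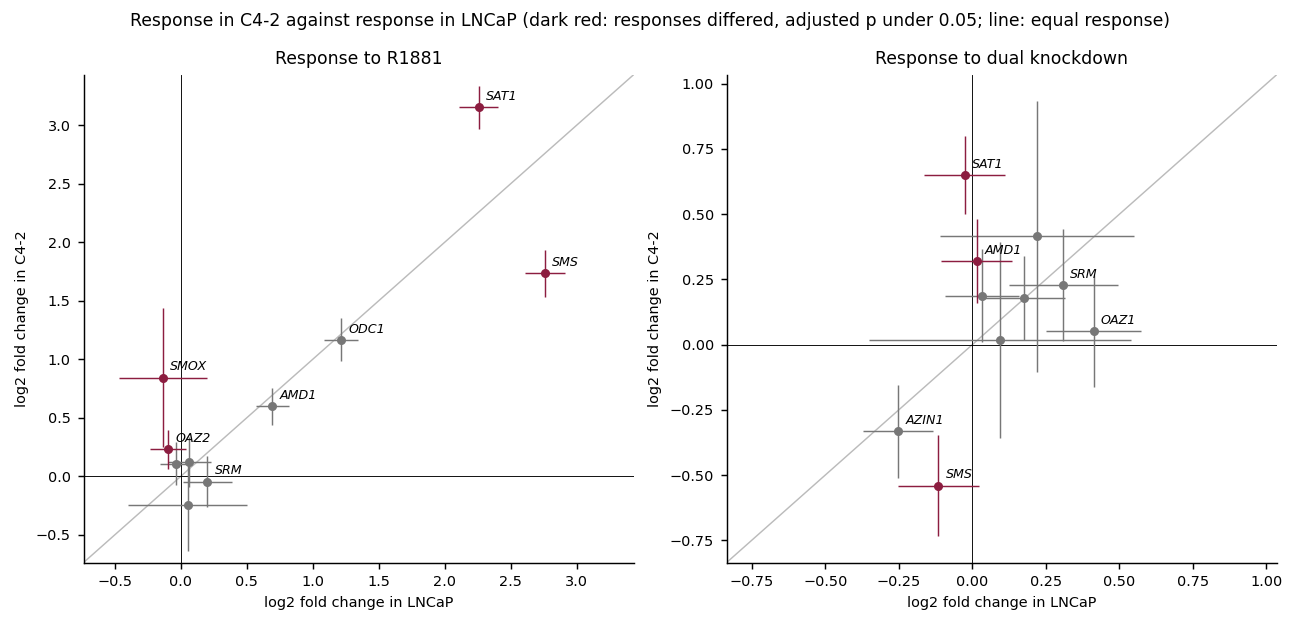
Log2 fold change in C4-2 (vertical axis) against that in LNCaP (horizontal axis) for R1881 (left) and the dual knockdown (right), with 95% intervals and a diagonal at equal response. Dark red marks genes whose responses differed at an adjusted p under 0.05, and some of the other genes carry no name. SMS lies below the diagonal in both panels and SAT1 above it in both.

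Ratios of 2 members within a library do not depend on how libraries are scaled, and 3 were formed after the data had been seen. With 3 libraries against 3 the smallest p of the 2-sided exact permutation test is 0.1. The ratio of SMS to SRM, the later synthase to the earlier, was 1.05, 1.49 and 1.15 in LNCaP vehicle, 6.19, 8.30 and 7.22 with R1881 and 5.64, 5.13 and 5.25 with the knockdown. In C4-2 it was 0.708, 0.746 and 0.633, then 2.48, 2.28 and 2.50, then 1.14, 1.63 and 1.57. It was higher with R1881 and lower again with the knockdown in both lines, each without overlap (exact permutation p = 0.1). The GC content of SRM, given above, applies to this ratio as well. With the GC trend removed, the knockdown log2 fold changes in LNCaP were -0.11 for SMS and -0.03 for SRM, neither passing. In C4-2 they were -0.54 for SMS and 0.15 for SRM, both passing.

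The ratio of SAT1 to ODC1, breakdown to first step, was 0.295, 0.287 and 0.272 in LNCaP vehicle, 0.578, 0.567 and 0.613 with R1881 and 0.587, 0.547 and 0.553 with the knockdown. In C4-2 it was 0.0416, 0.0460 and 0.0418, then 0.166, 0.172 and 0.165, then 0.225, 0.240 and 0.228. The 3 groups of C4-2 were separate, and in LNCaP the R1881 groups with siScr and with the knockdown overlapped (exact permutation p = 0.3). The ratio of OAZ1 to AZIN1, antizyme to inhibitor, was 3.95, 3.52 and 3.90 with R1881 in LNCaP and 6.67, 5.87 and 5.44 with the knockdown. In C4-2 it was 8.04, 7.74 and 7.18 with siScr and 13.4, 8.46 and 8.70 with the knockdown. It was higher with the knockdown without overlap in both lines (exact permutation p = 0.1), and knockdown replicate 1 of C4-2 stood apart from the other two. With vehicle, this ratio was 3.14 to 3.86 in LNCaP and 7.14 to 8.41 in C4-2, overlapping its R1881 values in each line. The GC content of OAZ1 and AZIN1, given above, applies to this ratio as well. With the GC trend removed, the knockdown log2 fold changes were 0.20 for OAZ1 and -0.15 for AZIN1 in LNCaP, neither passing. In C4-2 they were 0.007 for OAZ1 and -0.33 for AZIN1, of which AZIN1 passed.

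**Figure D5:**
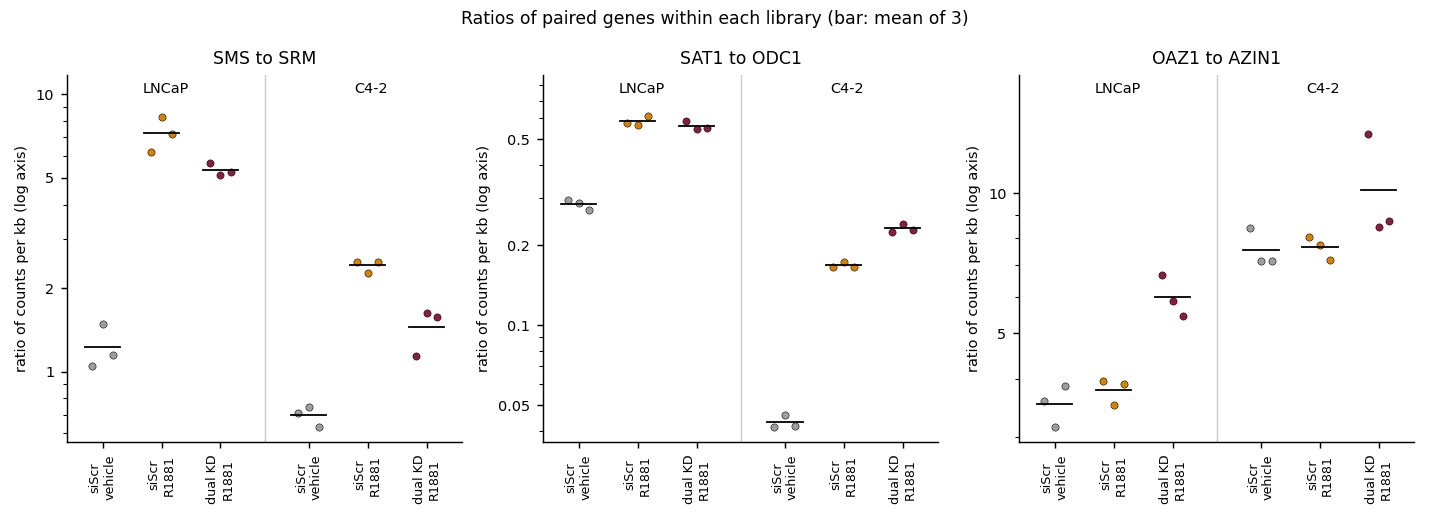
Ratios of counts per kilobase of SMS to SRM, SAT1 to ODC1 and OAZ1 to AZIN1 in each library (points, log axes) with the mean of 3 (bars), by line and group. The ratio of SMS to SRM reaches 6.19 to 8.30 in LNCaP with R1881 and 2.28 to 2.50 in C4-2.

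A wider list of 24 genes covered precursor supply, the methionine salvage cycle, further regulators and transporters, and eIF5A, the protein modified with spermidine. With R1881 in LNCaP 11 of 23 tested rose and 3 fell, and in C4-2 7 of 24 rose and 3 fell, against 46.6% of all genes called in LNCaP and 32.8% in C4-2. Among the genes of precursor supply, the arginase ARG1 rose in both lines, with log2 fold changes of 2.00 and 1.15. So did the aminotransferase OAT, with 1.04 and 0.80. ALDH18A1, also of this supply and named after its values were seen, did not pass in either line. Its mean CPM was 178 with vehicle and 177 with R1881 in LNCaP, and 245 and 270 in C4-2. The mitochondrial arginase ARG2 had 46.5, 48.9 and 48.1 CPM in LNCaP vehicle and 86.0, 84.1 and 99.1 CPM with R1881. In C4-2 ARG2 had 33.5, 33.4 and 32.6 CPM with vehicle and 20.95, 19.95 and 17.99 CPM with R1881. ARG2 thus rose in LNCaP (0.89, adjusted p = 1.05e-07) and fell in C4-2 (-0.76, adjusted p = 3.97e-05), and the responses differed by -1.67 (adjusted p = 4.62e-09). The R1881 responses of the lines also differed for ARG1 (-0.88), APIP (0.51) and OAZ3 (-1.20), so for 4 of 24 genes, near the 14.0% of all genes. AGMAT, an agmatinase tested only in C4-2, passed there at 2.06 (adjusted p = 0.0428) with all libraries under 1 CPM, and its groups overlapped, at 0.104, 0.172 and 0 CPM with vehicle and 0.605, 0.169 and 0.857 CPM with R1881.

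Methionine salvage recycles the methylthioadenosine that both synthases release. Its genes MTAP (0.37 in LNCaP and 0.28 in C4-2), APIP (0.73 and 1.26) and ADI1 (0.64 and 0.65) rose with R1881 in both lines on the log2 scale, and ENOPH1 (0.36) in LNCaP. MRI1, also of this cycle and named after its values were seen, had -0.16 and -0.30 and did not pass (adjusted p = 0.290 and 0.111). MAT2B, a regulatory subunit of the enzyme that makes S-adenosylmethionine, rose by 0.47 and 0.37, while its catalytic partner MAT2A fell by 0.18 in LNCaP and AHCY rose there by 0.21. The vesicular polyamine transporter SLC18B1 fell by 0.70 in LNCaP and by 0.68 in C4-2. OAZ3 (0.85) and EIF5A2 (0.56) rose and AZIN2 (-1.05) fell in LNCaP, and the lysosomal polyamine exporter ATP13A2 (-0.59) fell in C4-2.

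With the dual knockdown, 3 of 23 genes of the wider list rose and 1 fell in LNCaP, and 3 of 24 rose and 2 fell in C4-2, shares near the 14.2% and 23.5% of all genes, so nothing is read from the counts. In LNCaP ATP13A2 (0.35), EIF5A (0.25) and the hydroxylase DOHH (0.85), which completes the modification of eIF5A, rose and ATP13A3 (-0.24) fell. With the GC trend removed 1 of the 23 passed in LNCaP. In C4-2 MAT2A (0.38), SLC18B1 (0.69) and EIF5A2 (0.55) rose and SAT2 (-0.38) and OAZ3 (-0.59) fell. SLC18B1 had 23.7, 26.3 and 23.9 CPM in C4-2 vehicle, 15.7, 15.2 and 15.5 CPM with R1881 and 26.3, 22.8 and 26.1 CPM with the knockdown, so its knockdown libraries overlapped those with vehicle. The knockdown responses of the lines differed for MAT2A (0.43), SLC18B1 (0.74), SAT2 (-0.48) and EIF5A2 (0.55), so for 4 of 24 genes against 10.9% of all genes.

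Over the 18 libraries, the genes most like ODC1, AMD1 and SAT1 by Pearson's r of log2 CPM, among 9934 genes with a mean of at least 10 CPM, were the following. For ODC1 they were SLC45A3 (0.988), MYBPC1 (0.985) and FECH (0.984). For AMD1 they were TRAM1 (0.991), MEAF6 (0.991) and PPP1CB (0.991), and for SAT1 they were PLA2G12A (0.982), MCEE (0.982) and KIF13B (0.982). The libraries fall into 6 groups in 2 lines, so these values mainly describe differences between groups, and they carry no p.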

How the data were processed

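Read pairs of poly(A) libraries were trimmed by the authors with TrimGalore and aligned to GRCh38 with STAR. Per the file headers, FeatureCounts v1.5.0-p1 assigned them to Ensembl release 83 genes, with neither the strand nor the multimapping option set. The deposited counts are integers, 1 per gene and library, and are not normalised. Each of the 18 pairs of replicates differed by more than counting error, with chi-square per gene of 2.41 to 16.9.

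Symbols and GC content came from GENCODE 29, gene coordinates from the deposited counts (Ensembl release 83), and sequences from RefSeq (GRCh38.p14). For each line a model of 3 groups was fitted to its 9 libraries, and for comparisons between lines a model of 6 groups to all 18. In R 4.3.3, edgeR 4.0.16 was run with TMM factors, filterByExpr (minimum count 10, minimum total 15), the 2-sided quasi-likelihood test and Benjamini-Hochberg adjustment over all genes tested. A gene passed with an adjusted p under 0.05, and the study's threshold adds a log2 fold change of at least 1 in either direction. CPM values use TMM factors of all 18 libraries, and RPKM values use the exon lengths given in the files. Ratios were compared by the 2-sided exact permutation test. Exon GC content was pooled over the GENCODE 29 transcripts of a gene, so bases in several transcripts count repeatedly. The GC correction took the smooth trend of log2 counts over exon GC content out of each library. Other steps used matplotlib 3.10.9, scipy 1.17.1, numpy 2.4.6 and pandas 2.3.3 under Python 3.11.15. The fits were checked on simulated data.

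The alternatives were RLE factors, DESeq2 1.42.0, a minimum of 10 counts in every library, no filter at all, a fit of only the compared groups, the replicate number as a block, leaving out each library, glmTreat against a 2-fold change, thinned counts, GC correction, and GC correction with the block. The genes, the wider list and the alternatives were chosen with earlier results of these data known, and the ratios were added after seeing the data. The genes named were all 10 members, genes of the wider list with an adjusted p under 0.05 in a comparison, KDM1A, KDM7A, KLK3, and the 3 genes most like each of ODC1, AMD1 and SAT1. Between the lines at equal treatment, 18 of 24 genes of the wider list passed with vehicle and 12 with R1881, against 58.9% and 58.3% of all genes, and they are not named. The summed level of luminal markers is not reported here.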

Additional observations from a re-analysis of the deposited data

Results flagged for a closer look

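For 5 members the response to a treatment differed between the lines by the test of the difference itself. Values are log2 fold changes in C4-2 minus those in LNCaP. With R1881 they were -1.05 for SMS, 0.88 for SAT1, 0.95 for SMOX and 0.31 for OAZ2. With the dual knockdown they were 0.70 for SAT1, -0.40 for SMS and 0.33 for AMD1. SAT1 and SMS differed in both comparisons, which share the siScr libraries with R1881. KDM1A fell by 1.05 on the log2 scale in LNCaP and by 3.12 in C4-2 after the dual knockdown, and its part in the knockdown differences was not tested. No outlier test was run on groups of 3. Knockdown replicate 1 of C4-2 differed from the other two at a chi-square per gene of 15.3 and 13.5, against 3.29 between those, and leaving it out took the number of all genes whose knockdown response differed between the lines from 2028 to 3538.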

How the results depend on the processing

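The R1881 calls of ODC1, AMD1, SMS and SAT1 kept their direction and their side of the threshold in both lines under each alternative but glmTreat against a 2-fold change, which AMD1 missed in both lines and ODC1 in C4-2. By comparison, glmTreat left 2 members with R1881 in C4-2, 2 between the lines with vehicle and 2 with R1881, and 0 for the knockdown in either line and for both differences between responses. Of the wider list glmTreat left 1 with R1881 in LNCaP, 0 with R1881 in C4-2, 0 with the knockdown in either line, 3 between the lines with vehicle and 3 with R1881, 1 for the difference between R1881 responses and 0 for that between knockdown responses. Over all genes glmTreat left 939 of 17162 with R1881 in LNCaP and 590 of 16965 in C4-2. Between the lines it left 2665 of 18684 with vehicle and 2630 with R1881. For the knockdown it left 0 of 17162 in LNCaP and 53 of 16965 in C4-2. For the differences between R1881 responses and between knockdown responses it left 183 and 9 of 18684. With edgeR's unadjusted glmTreat p, 30 of all genes passed in LNCaP with the knockdown and 377 in C4-2.

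With the GC trend removed, 1 member passed for the knockdown in LNCaP and 1 gene of the wider list, against 1024 of all 17033 genes. SRM turned to -0.032 for the knockdown in LNCaP and to 0.25 with R1881 in C4-2, also with the block added, and the cause was not tested. Replicate numbers did not pair the libraries: deviations of libraries with the same number correlated at -0.07 to 0.07. As a block, the replicate number changed 1 call, ODC1 with the knockdown in C4-2 (0.19, adjusted p = 0.0496). The block with GC correction gave 7 members with the knockdown in C4-2 and 0 in LNCaP, 0 of the wider list in LNCaP, and 8 of it for the difference between R1881 responses. Over all genes it gave 5859 of 16846 in C4-2, 619 of 17033 in LNCaP and 3605 of 18531 for the difference between R1881 responses. Without the filter, 2 members remained for that difference, against 2471 of all 43853 genes. Only the groups compared, or at least 10 counts in every library, each gave 7 of the wider list for the knockdown in LNCaP. Over all genes these settings gave 3209 of 16210 and 2700 of 14016. Thinning all libraries to 3182604 counts gave 9 of the wider list with R1881 in LNCaP, 2 with the knockdown in C4-2, and 2 for each difference between responses. Over all genes it gave 5008 of 12579 with R1881 in LNCaP and 2215 of 12374 with the knockdown in C4-2. For the differences it gave 1385 of 13422 between R1881 responses and 894 between knockdown responses.

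Leaving out 1 library gave 1 to 3 members for the knockdown in LNCaP, 1 to 4 for the difference between knockdown responses and 2 to 4 for that between R1881 responses. For the wider list it gave 0 to 6 with the knockdown in LNCaP, 2 to 5 in C4-2, 2 to 6 for the difference between knockdown responses and 2 to 6 for that between R1881 responses. Over all genes it gave 839 to 2936 with the knockdown in LNCaP and 2482 to 4668 in C4-2. For the difference between knockdown responses it gave 1272 to 3538 of all genes, and for that between R1881 responses 1969 to 3090. SMOX and PAOX, at 1133 and 1542 counts over all libraries, had the widest intervals.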
